A study of Mus musculus with 4 samples.

Results

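Nuclear receptors, the oestrogen receptors among them, were followed in embryonic mouse kidneys after deletion of Sall1, a gene for a zinc finger protein that acts on transcription in the kidney primordium. The members were 44 named receptor genes, read from all 64 probes whose RefSeq accession maps to one of them, of 55681 probes and 20018 named genes on the array. Of the 44 genes, 26 had 1 probe, 16 had 2 probes and 2 (Esr1 and Ppara) had 3. RNA of whole kidneys at E13.5 (embryonic day) was hybridised to 4 one-colour arrays. The 2 Sall1 knockout arrays came from kidneys with an inducible Sall1 deletion whose sample titles name CreER. The 2 control arrays came from kidneys labelled control whose titles name flox alone. All 4 samples had a mixed 129 and C57BL/6 background, and the treatment text shared by all of them gives tamoxifen at E12.5, 24 hours before collection. CreER joins Cre recombinase to the hormone-binding domain of an oestrogen receptor, so that tamoxifen switches it on. The gene that drives CreER, its copy number, the litters and any pooling of embryos are not stated in the labels, so p-values reflect only how far these 4 samples spread, which may be technical.

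Nuclear receptors are transcription factors that bind DNA through a pair of zinc fingers and, in most cases, are switched by a small lipid-soluble ligand bound in a pocket of their C-terminal part. Steroid receptors wait with chaperones until hormone arrives, whereas receptors for retinoic acid, thyroid hormone, vitamin D and fatty acids pair with a retinoid X receptor and exchange corepressors for coactivators when the ligand binds. Orphan members of the family have no established ligand or need none. In the developing kidney, retinoic acid receptors of the stroma act on Ret in the neighbouring ureteric bud.

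A direct repeat of half-sites spaced by 5 bases is the classic element through which retinoic acid receptors act, and the proximal promoters of Rarb and Cyp26a1 are textbook examples. Both sequences are shown because these genes, a receptor and the enzyme that degrades its ligand, are set side by side in the results. Each line gives the 100 bases before the RefSeq start of the gene (GRCm38.p6), 5′ to 3′ on the strand of the gene, with the match to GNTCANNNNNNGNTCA on either strand in capitals.
Rarb, chr14:16575477-16575576, minus strand: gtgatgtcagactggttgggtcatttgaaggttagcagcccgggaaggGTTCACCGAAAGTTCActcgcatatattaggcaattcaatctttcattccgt
Cyp26a1, chr19:37697708-37697807, plus strand: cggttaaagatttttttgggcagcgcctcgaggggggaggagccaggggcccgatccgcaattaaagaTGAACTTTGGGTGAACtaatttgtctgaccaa
The match lay 52 to 37 bases before the start in Rarb, on the strand of the gene, and 32 to 17 bases before it in Cyp26a1, on the opposite strand. Over windows from 250 bases before to 50 after the start, 283 of 32851 promoters (0.861%) held a match. Of the receptors, 40 genes were found in the promoter table, with 60 promoters, and 1 of them, Rarb, held one. A match is a description of these letters and shows neither binding nor control.

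The signal of each array was divided by its 75th percentile, which was 534 and 521 in the knockout arrays and 597 and 547.5 in the control arrays, and all levels below are log2 of that ratio unless called processed signals. Spots well above background made up 64.2% and 60.6% of the knockout arrays and 64.1% and 63.3% of the control arrays. Sall1 itself was 1.03 and 1.07 in the knockout arrays, against 1.79 and 1.81 in the control arrays, a log2 difference of -0.75 ± 0.056 (SE, n = 2 per group; limma adjusted p = 0.126). Where its 1 probe lies relative to the deleted part is not stated in the labels, so the probe is no check of the deletion. Limma with its default prior called 0 of 25073 genes and unnamed sequences at an adjusted p under 0.05 (background 0%). With 2 arrays per group, their number limits the precision.

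Of the 44 receptor genes, 35 had a probe that was well above background on both knockout arrays, both control arrays or all of them, and were tested, 33 of them through a probe above background on all 4 arrays. Esr1, the oestrogen receptor alpha gene, Esrrg, an oestrogen-related receptor, and Nr5a2, an orphan receptor, had the largest differences, all higher in the knockout kidneys. The median log2 difference over the 35 genes was 0.036, beside -0.013 over all 25073 features. Differences were small for most receptors: 17 of 35 lay within 0.1 and 28 within 0.25 on the log2 scale. No receptor passed in limma (smallest adjusted p = 0.0818, Esr1), while an unadjusted p under 0.05 was reached by 6 higher and 0 lower receptors, against 6.77% and 5.94% of all features. At an adjusted p under 0.1, limma called Esr1 alone among the receptors, against 0.0439% of features called higher and 0.0399% called lower. A variance prior that follows the signal called 1 receptor, Esr1, against 0.542% of features called higher and 0.654% called lower. Esr1 entered the test only through the knockout arrays, where it was high, so its p-values rest on control signals below background, and it was not testable where all 4 arrays had to be above background.

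The difference was positive for 21 of the 35 receptors, against 46.4% of all features. Both knockout values lay above both control values for 15 of the 35 receptors (42.9%), against 21.5% of all features. Both lay below for 3 (8.57%; Nr2f2, Rarb and Nr2c1), against 27.7%. Among named genes only, the background was 24.2% above and 28.6% below. Centring the arrays on their medians in place of the 75th percentile moved the median of all features to -0.051, that of the receptors to -0.0032, and the counts to 12 above and 5 below, with backgrounds of 15.5% and 35.7%. At a limit of 1.5-fold without overlap, Esr1 and Esrrg were higher and 0 receptors were lower, against 2.48% and 1.05% of all features.

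**Figure D1:**
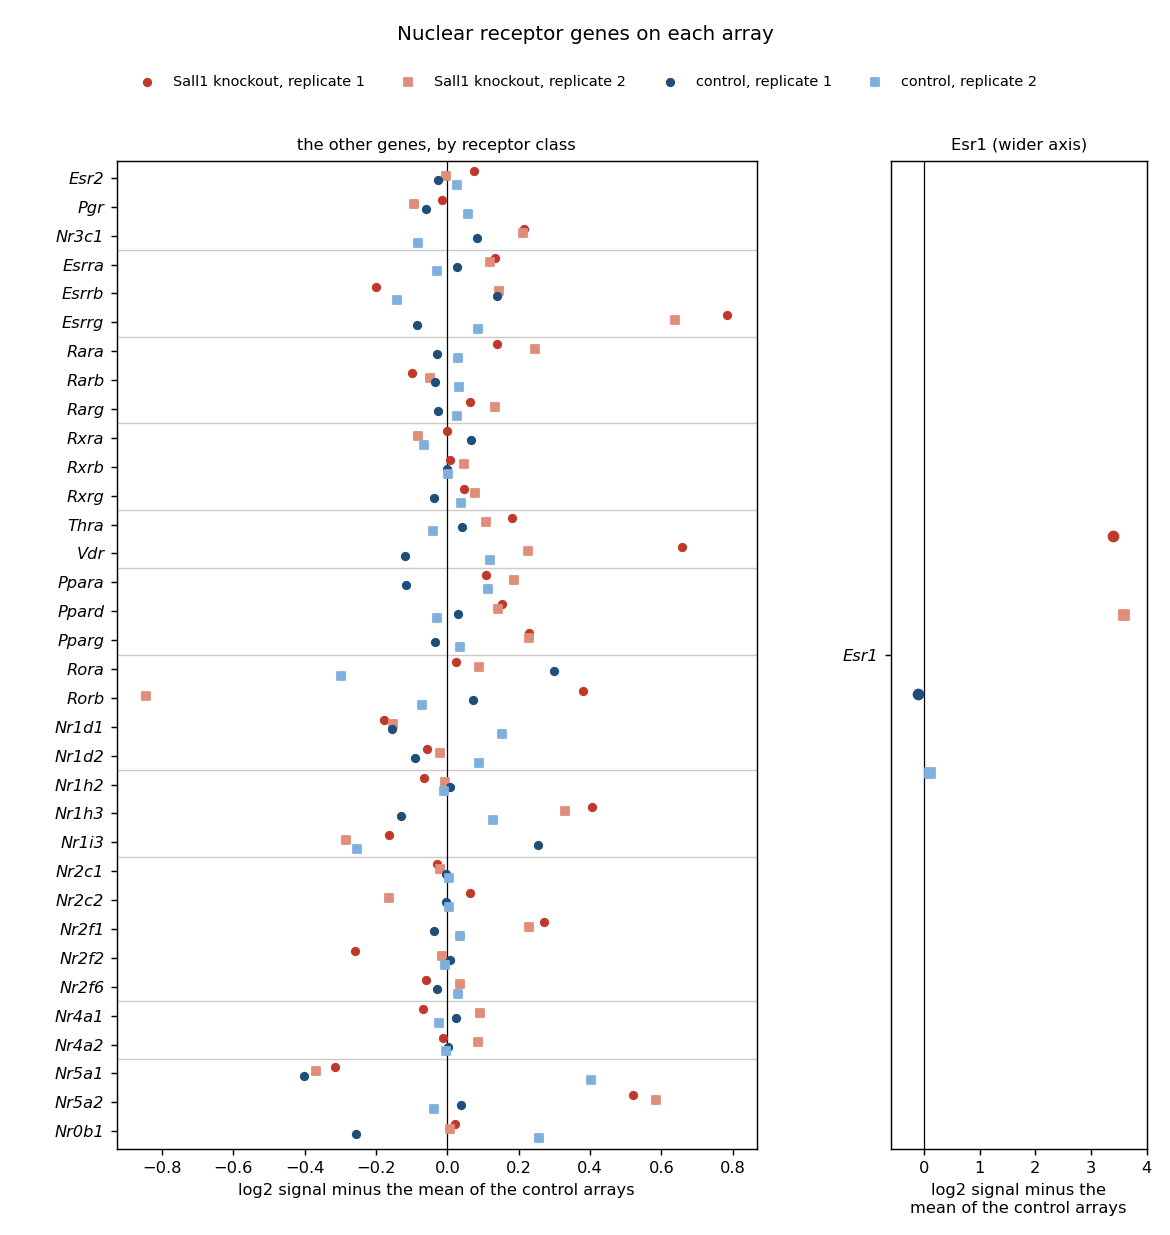
Log2 signal of the receptor genes on each array minus the mean of the 2 control arrays of the same probe, with Esr1 on an axis of its own; red marks are Sall1 knockout and blue marks control arrays, and grey lines part the receptor classes. Most genes stay within 0.25 of the control mean, and Esr1 and Esrrg lie furthest to the right in both knockout arrays. The Esr1 control values are below background.

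Among the steroid receptors, Esr1 stood apart, and through 1 of its 3 probes. Probe A_55_P2030883 had processed signals of 38.4 and 42.9 in the knockout arrays, against 3.78 and 4.03 in the control arrays. Both knockout spots were well above background and neither control spot was, so the groups did not overlap and the control level was not measured. Esr1 was 2.83-fold higher by this probe with the control level set at the lowest signal well above background on each array. Some other probes with signals above that level failed the background test, so this is not a strict bound. Its limma adjusted p was 0.0818, and 0.00634 with the trended prior. These p-values belong to a fitted log2 difference of 3.49 ± 0.12 (SE) that uses the control signals below background and is no measure of size. With normexp background correction that difference was 0.78.

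The other Esr1 probes did not share this pattern. Probe A_51_P474658 had processed signals of 3.36 and 4.28 in the knockout arrays, against 3.54 and 3.51 in the control arrays. Probe A_52_P237077, printed in 10 spots, had 4.36 and 4.67 in the knockout arrays, against 4.60 and 4.23 in the control arrays. Both failed the background test on all 4 arrays, so no fold is given. On the scaled log2 values the first overlapped between the groups, while the second was slightly higher in both knockout arrays (-6.99 and -6.81) than in the control arrays (-7.07 and -7.06). Where the probes lie in the transcript, and whether one lies within the receptor sequence of CreER, was not analysed here, because probe sequences are not among the sources used. CreER is named for the knockout samples alone, so endogenous Esr1 RNA and RNA of the CreER fusion cannot be told apart in this signal.

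**Figure D2:**
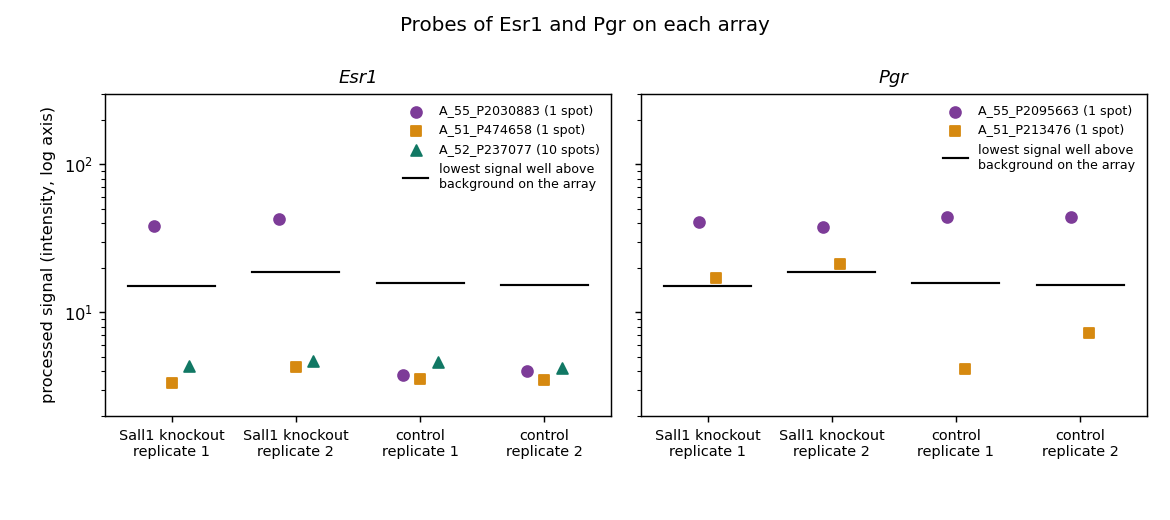
Processed signal (log axis) of the 3 Esr1 probes and the 2 Pgr probes on the Sall1 knockout and control arrays; the bars mark the lowest signal well above background on each array. The first Esr1 probe lies above the bar on both knockout arrays (38.4 and 42.9) and below it on both control arrays (3.78 and 4.03), while the other Esr1 probes lie below it throughout.

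The remaining steroid receptors differed little. Esr2, the oestrogen receptor beta gene, was 3.144 and 3.066 in the knockout arrays, against 3.043 and 3.097 in the control arrays. These values overlapped, with a difference of 0.036 ± 0.064 (SE) and a 95% interval of -0.15 to 0.22. Pgr, the progesterone receptor gene and a textbook oestrogen target, was -3.71 and -3.79 in the knockout arrays, against -3.76 and -3.64 in the control arrays, also with overlap. Its second probe had processed signals of 17.1 and 21.4 in the knockout arrays, against 4.13 and 7.30 in the control arrays, but no spot of it was marked well above background. Nr3c1, the glucocorticoid receptor gene, was 2.13 and 2.12 in the knockout arrays, against 2.00 and 1.83 in the control arrays. Both knockout values were higher, the second probe differed in the same direction (0.21 and 0.30), and the limma adjusted p was 0.415. Nr3c2, the mineralocorticoid receptor gene, was above background on 1 array of each group and was not tested.

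Genes known to respond to oestrogen in uterus or breast did not move together. Of 16 listed, 11 were tested, 3 lay higher and 4 lower without overlap, and the median was 0.051. Here and for the lists that follow, 21.5% of all features lay higher and 27.7% lower without overlap. C3, the complement component, was 0.05 and 0.16 in the knockout arrays, against -0.38 and -0.18 in the control arrays (limma adjusted p = 0.324). Tff1, a trefoil peptide, was -5.12 and -7.11 in the knockout arrays, against -2.07 and -4.52 in the control arrays (limma adjusted p = 0.432), with wide spread in both groups. The steroid receptor chaperones, which hold the unliganded receptors, had a median of -0.051 over 12 tested genes, 0 higher and 4 lower without overlap. Glucocorticoid response genes had a median of 0.088 over 12, with 7 higher and 2 lower without overlap. Zbtb16, a zinc finger gene induced by glucocorticoids, was among the lower ones, at -1.73 and -1.71 in the knockout arrays, against -1.26 and -1.46 in the control arrays (limma adjusted p = 0.324).

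The oestrogen-related receptors are orphan receptors that act on genes of energy metabolism and do not bind oestrogen. Esrrg was -2.54 and -2.69 in the knockout arrays, against -3.41 and -3.24 in the control arrays. Both knockout values lay well clear of both control values, 1.64-fold higher, with a log2 difference of 0.71 ± 0.098 (SE; 95% interval 0.43 to 0.99; limma adjusted p = 0.213, trended prior 0.0799). The second Esrrg probe gave 0.77, with processed signals of 71.0 and 55.5 in the knockout arrays, against 41.1 and 38.7 in the control arrays. In all, 483 of 25073 features were higher in the knockout arrays by a larger log2 difference than Esrrg. Esrra was 1.89 and 1.88 in the knockout arrays, against 1.79 and 1.73 in the control arrays, higher without overlap by 0.13 ± 0.058 (SE; limma adjusted p = 0.457). Esrrb overlapped between the groups (-0.029 ± 0.17, SE). Ppargc1b, a listed coactivator, was -2.07 and -2.07 in the knockout arrays, against -2.45 and -2.48 in the control arrays. Its log2 difference was 0.39 (limma adjusted p = 0.216). Ppargc1a, from the same coactivator list, went the other way without overlap. It was -0.58 and -0.70 in the knockout arrays, against -0.50 and -0.51 in the control arrays (log2 difference -0.14; limma adjusted p = 0.476).

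Markers of the proximal tubule were mostly higher in the knockout arrays, as was Esrrg. All but 1 of the 9 tested markers were higher in sign, 7 without overlap, with a median of 0.61. Their summed level, in units of each array's 75th percentile, was 4.19 and 3.81 in the knockout arrays, against 2.38 and 2.40 in the control arrays. These 9 were above background on all 4 arrays, while the other listed marker, Slc5a2, was below background and was not tested. Liver, skeletal muscle and macrophage markers, described below, were mostly higher too, with medians of 1.52, 1.16 and 0.51. The part of any of these cells in the Esrrg difference was not tested. In whole kidneys, a change in the number of cells of a type and a change in RNA per cell cannot be told apart.

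The retinoic acid receptors carry the signal that stroma gives to the ureteric bud. Rara was 2.82 and 2.93 in the knockout arrays, against 2.65 and 2.71 in the control arrays, higher without overlap by 0.19 ± 0.070 (SE; limma adjusted p = 0.403). Rarg was 2.17 and 2.24 in the knockout arrays, against 2.08 and 2.14 in the control arrays, also without overlap. Rarb, whose promoter is printed above, was 2.49 and 2.54 in the knockout arrays, against 2.55 and 2.62 in the control arrays. It lay lower without overlap, by -0.073 ± 0.062 (SE; 95% interval -0.25 to 0.10), and its second probe gave -0.22. Of their partners, the retinoid X receptors, Rxra differed by -0.042, Rxrb by 0.027 and Rxrg by 0.062, with a limma adjusted p of at least 0.684. Rxrg had a second probe at 0.35, with processed signals of 846 and 647 in the knockout arrays, against 875 and 455 in the control arrays, so that the groups overlapped and control replicate 2 was the lowest.

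Of 9 retinoic acid response genes tested, 6 lay lower and 1 higher without overlap, against 27.7% and 21.5% of all features, with a median of -0.23. Their difference from the receptors was not tested. Cyp26a1, which degrades retinoic acid and whose promoter is printed above, was -5.45 and -5.41 in the knockout arrays, against -3.54 and -3.37 in the control arrays. On both knockout arrays it failed the background test. It was 2.87-fold lower with the knockout level set at the lowest signal well above background, which is not a strict bound. Its limma adjusted p was 0.0818, and 0.0137 with the trended prior. Its fit rests on knockout signals below background, and with normexp background correction the log2 difference was -0.42 (limma adjusted p = 0.140). Stra6, the membrane receptor for retinol-binding protein, was 1.38 and 1.42 in the knockout arrays, against 1.68 and 1.70 in the control arrays (limma adjusted p = 0.276). Tgm2, tissue transglutaminase, was 1.41 and 1.40 in the knockout arrays, against 0.96 and 0.90 in the control arrays, the 1 member that was higher (limma adjusted p = 0.191, trended prior 0.0124). The groups were clearly apart for all 3 of these genes.

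**Figure D3:**
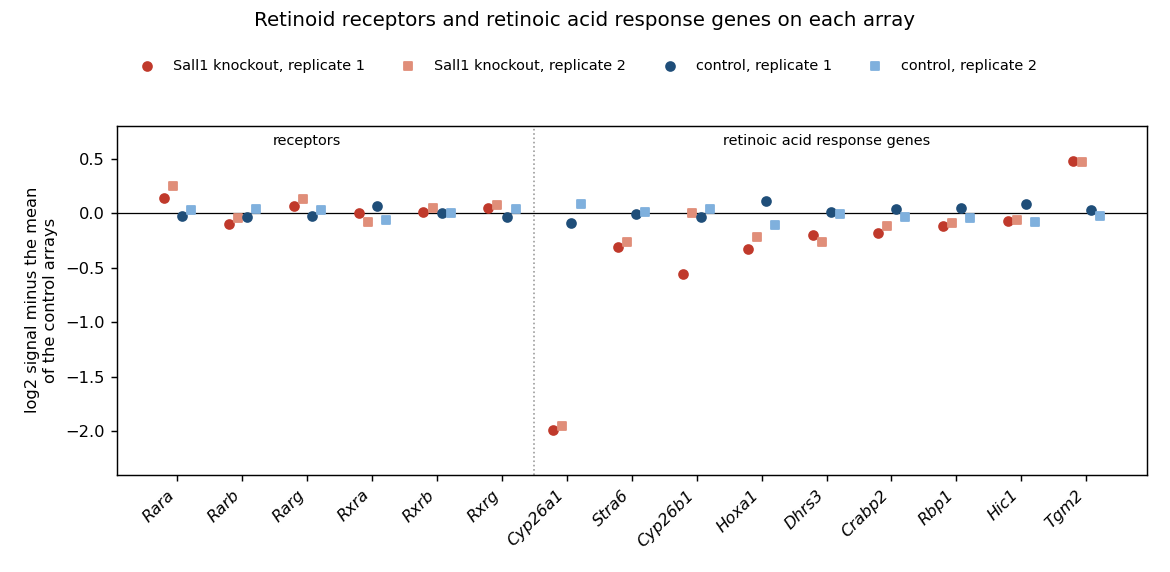
Log2 signal on each array minus the mean of the 2 control arrays for the retinoic acid and retinoid X receptors (left of the dotted line) and for 9 retinoic acid response genes (right); red marks are Sall1 knockout and blue marks control arrays. The receptors stay near 0, Cyp26a1, whose knockout values are below background, lies furthest down in both knockout arrays and Tgm2 furthest up.

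The thyroid hormone and vitamin D receptors gave modest values. Thra, the thyroid hormone receptor alpha gene, was 2.83 and 2.76 in the knockout arrays, against 2.69 and 2.61 in the control arrays. Its groups did not overlap, the second probe was higher too (0.15 and 0.28), and the limma adjusted p was 0.460. Vdr, the vitamin D receptor gene, was -3.95 and -4.38 in the knockout arrays, against -4.73 and -4.49 in the control arrays. Knockout replicate 1 alone lay far above the rest, and the difference of 0.44 ± 0.19 (SE) had a 95% interval of -0.09 to 0.97. Thrb was below background on all 4 arrays. Response genes of vitamin D and thyroid hormone had a median of -0.013 over 8 tested, 2 higher and 3 lower without overlap.

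All 3 PPAR genes, sensors of fatty acids, had positive differences. Pparg, known for fat cell formation, was -0.77 and -0.76 in the knockout arrays, against -1.03 and -0.96 in the control arrays. The knockout values nearly coincided and lay above both control values, by 0.23 ± 0.060 (SE; limma adjusted p = 0.329). Ppard was 0.47 and 0.46 in the knockout arrays, against 0.35 and 0.29 in the control arrays (limma adjusted p = 0.424). Ppara, the receptor of hepatic fatty acid oxidation, overlapped between the groups (0.15 ± 0.10, SE), and a second probe gave 0.042. The third was above background in the knockout arrays alone, with processed signals of 23.58 and 26.56, against 23.55 and 21.01 in the control arrays. Its ratio, 1.22-fold higher, uses control signals that failed the background test and is no bound. PPAR target genes had a median of 0.25 over 14 tested, 7 higher and 1 lower without overlap. Cpt1a, the carnitine transferase of fatty acid import into mitochondria, was 0.83 and 0.85 in the knockout arrays, against 0.61 and 0.64 in the control arrays (limma adjusted p = 0.328).

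Among the sterol, bile acid and xenobiotic receptors, Nr1h3, the oxysterol receptor LXR alpha, had the largest difference. It was -1.97 and -2.05 in the knockout arrays, against -2.51 and -2.25 in the control arrays. The groups did not overlap, with a difference of 0.37 ± 0.11 (SE; limma adjusted p = 0.363), but the second probe, at 0.15, did overlap. Nr1h2, LXR beta, was 3.36 and 3.42 in the knockout arrays, against 3.43 and 3.42 in the control arrays, a difference of -0.036 ± 0.059 (SE). Nr1i3, the constitutive androstane receptor, overlapped (-0.22 ± 0.20, SE), with control replicate 1 high. Nr1h4, the bile acid receptor, and Nr1i2, the pregnane X receptor, were below background on all 4 arrays. LXR target genes had a median of 0.032 over 8 tested, with 3 higher and 3 lower without overlap.

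Liver and macrophage markers were mostly higher in the knockout arrays, while stromal markers went both ways. All 12 liver markers lay higher without overlap, with a median of 1.52 and a summed level of 44.005 and 40.7 in the knockout arrays, against 14.1 and 20.4 in the control arrays. Trf, the transferrin gene, was 2.67 and 2.50 in the knockout arrays, against 1.28 and 1.51 in the control arrays (limma adjusted p = 0.175). Of 9 tested macrophage markers, 8 lay higher without overlap, with summed levels of 9.42 and 8.03 in the knockout arrays, against 6.61 and 6.22 in the control arrays. All 12 liver and the 9 tested of 10 macrophage markers were above background on all 4 arrays. Stromal markers had a median of 0.23 over 10, with 4 higher and 2 lower without overlap. Nr1h3 was higher too, while Nr1h2 (-0.036) and Nr1i3 (-0.22) had negative differences with overlapping groups. The part of these cells in the values of Nr1h3, Nr1h2, Nr1i3, Pparg and Nr5a2 was not tested.

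The NR2 receptors grouped here, which leave out the retinoid X receptors, are orphan receptors. Among them are the COUP factors Nr2f1 and Nr2f2, which are expressed in mesenchyme. Nr2f1 was 5.58 and 5.54 in the knockout arrays, against 5.27 and 5.35 in the control arrays. Both of its probes were higher without overlap (0.25 ± 0.062, SE, and 0.32), with a limma adjusted p of 0.324 and 0.0665 with the trended prior. Nr2f2 went the other way, at 4.07 and 4.32 in the knockout arrays, against 4.34 and 4.33 in the control arrays. Knockout replicate 1 alone was low, and the difference was -0.14 ± 0.10 (SE; limma adjusted p = 0.599). Nr2f6 overlapped between the groups (-0.012 ± 0.067, SE), as did Nr2c2 (-0.050). Nr2c1 was lower without overlap by -0.025, less than its standard error of 0.054, while its second probe gave -0.15. Nr2e1, known from neural stem cells, and Hnf4g, a relative of the hepatocyte factor HNF4, were below background on all 4 arrays.

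Nr5a2, the orphan receptor LRH-1 of liver, pancreas and early embryo, was -1.93 and -1.87 in the knockout arrays, against -2.41 and -2.49 in the control arrays. The groups were well apart, 1.47-fold higher, with a log2 difference of 0.55 ± 0.065 (SE; 95% interval 0.37 to 0.74; limma adjusted p = 0.191, trended prior 0.0695). Its second probe did not bear this out: its processed signals were 9.85 and 4.84 in the knockout arrays, against 8.46 and 46.6 in the control arrays, and only the last was above background.

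Nr5a1, steroidogenic factor 1 of adrenal and gonad, was -0.77 and -0.83 in the knockout arrays, against -0.86 and -0.06 in the control arrays. Control replicate 2 alone was high and the groups overlapped (-0.34 ± 0.30, SE), and without that array the difference was 0.059. Nr0b1, the adrenal repressor DAX1, was -3.53 and -3.55 in the knockout arrays, between the control values of -3.81 and -3.30. Adrenal cortex markers, a tissue that lies on the kidney, had a median of 0.080 over 8 tested, 3 higher and 1 lower without overlap. Their summed level was 20.8 and 24.3 in the knockout arrays, against 19.3 and 20.2 in the control arrays, and 7 of the 8 were above background on all 4 arrays, while 2 further listed markers were not tested. The lower one, Mc2r, the receptor for adrenocorticotropin, was -1.70 and -1.62 in the knockout arrays, against -1.01 and -1.09 in the control arrays (limma adjusted p = 0.184, trended prior 0.0276). Whether adrenal tissue took part in the values of Nr5a1 and Nr0b1 was not tested. Nr0b2, a corepressor-like receptor, was above background on 1 control array, and Nr6a1, the germ cell nuclear factor gene, on none.

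The receptors of the circadian clock and the immediate early NR4A receptors overlapped between the groups throughout. Nr1d1 and Nr1d2, the REV-ERB repressors, differed by -0.17 ± 0.12 and -0.039 ± 0.086 (SE). Rora, an activator at the same sites, was -2.66 and -2.60 in the knockout arrays, between the control values of -2.39 and -2.98. Rorb was above background on 1 of 2 knockout arrays, where its levels were -3.89 and -5.12, against -4.20 and -4.35 in the control arrays. Its direction cannot be read at this spread, with a 95% interval of -1.51 to 1.05. Clock genes had a median of -0.013 over 12 tested, 2 higher and 4 lower without overlap. Nr4a1 was 1.08 and 1.25 in the knockout arrays, against 1.18 and 1.13 in the control arrays, and Nr4a2 differed by 0.037 ± 0.065 (SE). Nr4a3 was below background on all 4 arrays. Immediate early genes, which are induced by growth signals, had a median of 0.062 over 11, 3 higher and 3 lower without overlap. Egr1, an early zinc finger gene, was 0.59 and 0.61 in the knockout arrays, against 1.05 and 0.90 in the control arrays (limma adjusted p = 0.288).

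The cofactors that receptors share had medians near 0. Coactivators had a median of 0.0034 over 18 tested, between -0.22 (Ep300) and 0.39 (Ppargc1b), with 3 higher and 5 lower without overlap. Ep300, a histone acetyltransferase, was -0.48 and -0.53 in the knockout arrays, against -0.28 and -0.29 in the control arrays (limma adjusted p = 0.329). Corepressors had a median of -0.044 over 10, the lowest at -0.25 (Sin3a), with 0 higher and 3 lower without overlap. Over all features these shares were 21.5% higher and 27.7% lower. Ncor1, which unliganded receptors recruit, was 1.0001 and 0.916 in the knockout arrays, against 1.14 and 1.12 in the control arrays (limma adjusted p = 0.398).

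Several probes per gene gave a check within the arrays. For 13 receptors, a pair of probes was above background on all 4 arrays, and for all 13 the differences had the same sign, with a median gap of 0.091 on the log2 scale. The gap was widest for Rxrg (0.062 and 0.35) and Nr1h3 (0.37 and 0.15). Of the 18 receptors with more than 1 probe, Nr5a2, Pgr, Nr1i3 and Thrb had probes of opposite sign. They fell outside this check because of probes below background, as did Esr1. Replicate arrays differed by a median of 0.075 between the knockout arrays and 0.077 between the control arrays over the 35 receptors, beside 0.090 and 0.094 over all features. Probes of one gene share each array's RNA, so their sign is not independent of it. Thra and Nr1d1 overlap on opposite strands in RefSeq, and Nr1h3, Nr1i3, Esrra and Nr2c2 overlap another gene. Whether a probe there could read the other gene was not analysed.

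**Figure D4:**
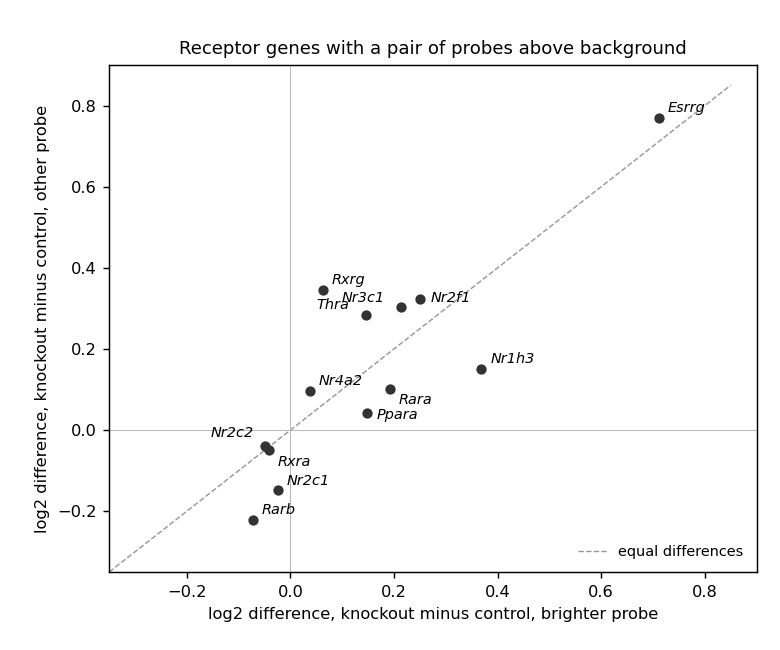
Log2 difference, knockout minus control, of the brighter probe (horizontal) and the other probe (vertical) for the 13 receptor genes with a pair of probes above background on all 4 arrays; the dashed line marks equal differences. Every gene has the same sign by both probes, and Esrrg lies furthest from 0 (0.71 and 0.77).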

How the data were processed

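Total RNA of 4 kidney samples was labelled with Cy3 from 0.25 µg, per the labels. Per the file headers, the deposited intensity values are output of Agilent Feature Extraction 10.7.3.1 (array design 028005, mm9), with background subtraction and detrending within the array and no scaling between arrays. The deposited value table held the same intensity (100% of 55249 single-spot probes within 1%; column medians 47.76 and 45.79 knockout, 52.29 and 47.07 control). Control replicate 1 has values rounded to 3 significant digits.

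Processed signals were divided by the 75th percentile of each array and set to log2. Control and outlier-marked spots (147 to 174 per array) were left out, no spot was saturated, and a probe was kept (34254 in all) where either group had it well above background on both its arrays. Symbols came from RefSeq accessions matched without versions (26413 probes matched, 29268 did not). The brightest probe represented a gene, giving 15080 named genes and 9993 unnamed sequences. The comparison used limma 3.58.1 under R 4.3.3 (lmFit, eBayes, two-sided, Benjamini-Hochberg over all features). It had 2 residual and 1.79 prior degrees of freedom. The fit was also run on simulated data, whose results are not given here. A below-background group entered a fold at the lowest signal well above background on each array, or at its own signal where that was higher. Slide and scan were the same for all arrays.

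Alternatives were normexp (offset 50, on the median signal), quantile normalization, median centring, other filters and probe rules, a trended robust prior, array weights, the value table, a 2-fold limit with an adjusted p under 0.1, and each array left out. Named were Sall1, all 44 receptors and, from each gene list, up to 3 members with the smallest unadjusted p. Ppargc1a was named in addition, beside Ppargc1b. The members and lists were chosen with earlier results of these data known.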

Additional observations from a re-analysis of the deposited data

How the results depend on the processing

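The count of receptors past an adjusted p of 0.05 in limma was 0, and 1 (Esr1) with the trended robust prior or at an adjusted p under 0.1. The 2 receptors at least 1.5-fold higher were 1 with normexp, 1 where all 4 arrays had to be above background and 1 at a 2-fold limit. Median centring gave a median of -0.0032 and 5 receptors wholly below the controls. With each array left out in turn, receptors past the adjusted p stayed at 0, those at least 1.5-fold higher numbered 2 to 3 and lower 0 to 1 (1 without control replicate 1 or knockout replicate 1), the median was 0.033 to 0.087, 16 to 20 lay wholly above and 7 to 9 wholly below, where the single array left makes separation easier.

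Over 15 alternatives, 492 of 523 receptor differences kept sign and side, 30 turned sign and 1 passed. The sign never turned for 18 receptors and turned for 17, all with small differences or wide spread, and the cause was not tested. Normexp gave Esrrb 0.043, Nr1d1 0.027, Nr1d2 0.050, Pgr 0.024, Rorb 0.030, Gata4 0.000996 and Per2 0.015. Quantile normalization gave Nr0b1 -0.032, Nr1h2 0.0062 and Nr2f6 0.023. Median centring gave Esr2 -0.0032, Nr0b1 -0.024, Nr4a1 -0.027, Nr4a2 -0.0018 and Rxrb -0.011.

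With each array left out in turn, the log2 differences that turned sign ranged over Esr2 -0.0034 to 0.074, Esrrb -0.20 to 0.14, Nr0b1 -0.24 to 0.27, Nr1d2 -0.13 to 0.051, Nr1i3 -0.48 to 0.028, Nr2c2 -0.16 to 0.064, Nr2f6 -0.059 to 0.035, Nr4a1 -0.069 to 0.092. The others ranged over Nr4a2 -0.013 to 0.087, Nr5a1 -0.74 to 0.059, Pgr -0.11 to 0.0043, Rora -0.24 to 0.35, Rorb -0.84 to 0.38, Rxra -0.11 to 0.024, Dbh -1.17 to 0.12 and Gata4 -0.74 to 0.019.

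The median of the retinoic acid response genes stayed below 0 under every alternative run, and that of the PPAR target genes above 0. The medians near 0 of the coactivators and of the oestrogen, LXR, vitamin D and thyroid hormone, clock, immediate early and gonad lists changed sign under at least 1.

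No paired analysis was possible because the numbers in the sample titles are not shared between the groups. With 2 arrays per group, an exact permutation test of 1 value could not go below p = 0.333. Signals below background limit Esr1 in the controls, Cyp26a1 in the knockouts and the 9 receptors not tested.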

Other observations

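Marker lists of cell types not described in full above gave the following values. Limma with its default prior called 0 of their genes at an adjusted p under 0.05, as over all features. Nephron progenitor markers had a median log2 difference of -0.45 over 12 tested genes, with 2 higher and 8 lower without overlap. Cited1, a co-regulator of uncommitted progenitors, was 2.00 and 1.88 in the knockout arrays, against 4.08 and 4.20 in the control arrays (limma adjusted p = 0.0818, trended prior 4.9e-05). Ureteric bud markers had a median of 0.11 over 10, with 5 higher and 3 lower without overlap, and endothelial markers had a median of 0.20 over 10, with 6 higher and 0 lower. With the trended prior, 6 nephron progenitor markers were called lower and 0 higher. It also called 2 ureteric bud markers and 1 endothelial marker higher. Over all features, it called 0.542% higher and 0.654% lower.

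Of the remaining lists, for tissues outside the kidney, skeletal muscle markers were mostly higher. Counts without overlap in the other lists did not exceed the shares of all features, 21.5% higher and 27.7% lower. Skeletal muscle markers had a median of 1.16 over 12, with 10 higher and 1 lower without overlap, and their summed level was 72.4 and 50.3 in the knockout arrays, against 40.7 and 19.6 in the control arrays. Sympathetic neuron and chromaffin markers had a median of -0.37 over 10, with 0 higher and 2 lower without overlap. Gonad and mesonephros markers had a median of -0.018 over 6 tested of 10, with 1 higher and 0 lower without overlap. The trended prior called 1 skeletal muscle marker and 1 sympathetic neuron or chromaffin marker lower.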
